A study of Mus musculus with 4 samples.

Results

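The alveolar identity genes are 10 genes that resident alveolar macrophages of the healthy lung express: Chil3, Car4, Krt79, Cidec, Plet1, Ear2, Fabp1, Fabp4, Pparg and Bhlhe41. They were taken by symbol from the raw count table, where all 10 were found among 16360 gene symbols, and all 10 passed the filter on low counts. They were measured by poly(A) RNA-seq in recruited alveolar macrophages, the monocyte-derived cells that enter the airspaces after injury. The R213G group was homozygous for the R213G variant of EC-SOD, the secreted superoxide dismutase encoded by Sod3, and the WT group carried the wild-type enzyme. All animals were male, of the strain given as CD57/Bl6 and 8 to 10 weeks of age, and all had been given intratracheal bleomycin, which injures the lung (100 µl of a 1 U/ml solution). Cells high in CD64, low in Siglec-F and high in CD11b were sorted on day 7, and each genotype had 2 libraries. Whether a library stands for 1 mouse or for pooled mice is not stated, so p-values cover only the spread among libraries, which may be technical. No other day, uninjured lung, blood monocyte or sorted resident macrophage is among the 4 libraries, so a level here cannot be read as a gain over time.

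Resident alveolar macrophages clear surfactant lipid, and their identity depends on GM-CSF from the alveolar epithelium and on TGF-beta, which induce the nuclear receptor PPAR-gamma. PPAR-gamma, encoded by Pparg, drives genes of lipid uptake and storage, and the repressors Bhlhe40 and Bhlhe41 maintain the self-renewing state. Monocytes that settle in the injured alveolus take on this program step by step while they lose monocyte genes.

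Total counts lay between 33488569 and 35176210 per library. R213G replicate 1 stood apart, with 13584 genes detected, against 15047 in R213G replicate 2 and 14598 and 15194 in the WT libraries. The sort was checked at the RNA level: Fcgr1, which encodes CD64, averaged 250 ± 0.494 CPM in R213G and 252 ± 12.6 CPM in WT, and Itgam, which encodes CD11b, 790 ± 97.4 CPM in R213G and 823 ± 89.4 CPM in WT (mean ± SD, n = 2 each). Siglecf, which encodes Siglec-F, averaged 11.9 ± 0.324 CPM in R213G and 10.8 ± 0.0369 CPM in WT. CPM are counts per 1e6 of the filtered and TMM-normalized library. Sod3 itself, on chromosome 5, had 4 and 47 counts in R213G and 47 and 96 counts in WT, and none of the 10 genes lies on that chromosome.

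The 10 genes covered a wide range of levels. Per kilobase of exon, Ear2 and Chil3 led, with means of 177 and 155 CPM per kb over the 4 libraries, and their ranges overlapped. Plet1 and Bhlhe41 followed at 39.9 and 35.4 CPM per kb, also with overlapping ranges, below every library of Chil3 and above every library of Pparg. Pparg, Fabp4 and Car4 stood at 12.2, 8.88 and 5.94 CPM per kb, where each neighbour overlapped the next. The length of a gene here joins all its annotated exons. For Fabp4 this gave 4489 bases, against 896 in its transcript with the longest coding sequence. The place of Fabp4 in this order therefore depends on the length chosen. Fabp1, Cidec and Krt79 were near the limit of detection at 0.575, 0.469 and 0.0682 CPM per kb, below every library of Car4. Among all detected genes ranked by CPM per kb, Ear2 was at percentile 98.3 or above in every library, whereas Krt79 was at percentile 15.5 or below.

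**Figure D1:**
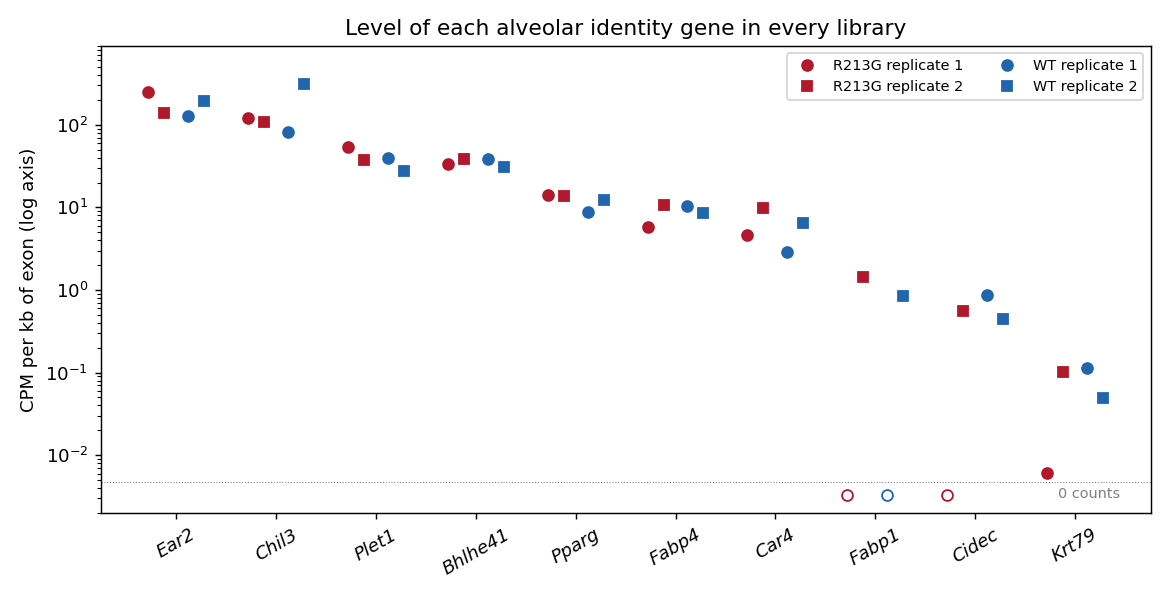
Level of the 10 alveolar identity genes in each library, in CPM per kb of exon on a log axis, with R213G libraries in red and WT libraries in blue, circles for replicate 1 and squares for replicate 2, and open symbols for 0 counts. Ear2 and Chil3 are highest, at means of 177 and 155 CPM per kb, Fabp1 and Cidec are at 0 in R213G replicate 1, and Fabp1 is also at 0 in WT replicate 1.

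The question put to these genes was whether R213G and WT macrophages differed in their progress toward the resident identity at day 7. No gene did so past the test. Of the 10 genes, 0 were called in either direction (edgeR quasi-likelihood, Benjamini-Hochberg adjusted p = 0.9996 for each of the 10), where 0% of the 13575 genes tested were called. At an unadjusted p under 0.05 the count was 0 of 10, against 2.22% of all genes tested, and DESeq2, limma voom and the legacy form of edgeR called 0 of the 10 as well. The log2 fold change was positive for 6 genes and negative for 4, with a median of 0.16 over the 10 genes and -0.0056 over all genes tested. Without R213G replicate 2, 3 of the 10 were positive and the median was -0.38. In these sorted populations a lower level can mean fewer cells that express a gene or less RNA per cell, and these cannot be told apart.

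Pparg, the nuclear receptor at the head of the program, was the single gene whose genotypes did not overlap. It lies on chromosome 6 from 115360951 to 115490399 (GRCm38, plus strand). It was measured at 41.3 and 40.8 CPM in R213G replicates 1 and 2, against 25.8 and 36.3 CPM in WT replicates 1 and 2. The R213G libraries were nearly equal and both above WT, and WT replicate 1 was the low library. The log2 fold change was 0.40 ± 0.20 (SE; edgeR quasi-likelihood, unadjusted p = 0.0797). Leaving out WT replicate 1 gave 0.17, and leaving out WT replicate 2 gave 0.67. Having both R213G libraries above both WT libraries was also found for 13.7% of all genes tested, and the reverse for 15.2%, so 1 of 10 above and 0 of 10 below is near the background.

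Bhlhe41, a basic helix-loop-helix repressor, was the steadiest of the 10. It lies on chromosome 6 from 145858243 to 145865558 (minus strand) and was measured at 223 and 262 CPM in R213G, against 262 and 205 CPM in WT. The libraries of the genotypes interleaved, and the highest was only 1.28 times the lowest. Its log2 fold change was 0.05 ± 0.15, and the sign turned without R213G replicate 2 (-0.07) or WT replicate 2 (-0.11). Its paralog Bhlhe40 averaged 406 ± 34.4 CPM in R213G and 375 ± 27.5 CPM in WT (SD, n = 2 each), a log2 fold change of 0.12 ± 0.12.

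Sequence upstream of the transcription starts was searched for letters that these factors are known to bind, using the 250 bases before each transcription start in RefSeq (GRCm38.p6), on both strands. All members but Fabp4 matched by symbol, with 12 upstream sequences for 9 genes. The PPAR direct repeat AGGTCANAGGTCA was in 0 of those 12 and in 0.0335% of all 32851 upstream sequences. Its single arm AGGTCA was in 4 of the 12, those of Fabp1, Plet1 and 2 of Pparg, and in 14.0% of all. Counted by gene, it was upstream of Fabp1, Plet1 and Pparg, and of 15.8% of all genes. The E-box CACGTG, the site of the Bhlhe repressors, was in 1 of the 12, that of Bhlhe41, and in 6.02% of all. A match of letters is a description and says nothing about binding in these cells. The RefSeq starts used here differ from the ends of the GENCODE gene spans given for some genes: those of Fabp1 (71199879), Bhlhe41 (145865420) and Pparg lie inside the GENCODE span. Both AGGTCA matches of Pparg and the match of Fabp1 nearest its RefSeq start lie in GENCODE exons and are not printed. The other matches are shown in 100-base stretches outside those exons, since they place the single arm or the E-box beside members whose levels are given. The single arm alone is not the PPAR direct repeat. The stretches run 5′ to 3′ on the gene's strand, with the motif, or its reverse complement TGACCT, in capitals.
Fabp1, chr6:71199727-71199826, plus strand: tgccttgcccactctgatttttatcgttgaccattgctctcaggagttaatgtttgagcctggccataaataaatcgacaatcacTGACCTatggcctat
Plet1, chr9:50494413-50494512, plus strand: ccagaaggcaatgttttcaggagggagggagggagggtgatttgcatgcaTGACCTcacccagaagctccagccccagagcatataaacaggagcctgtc
Bhlhe41, chr6:145865559-145865658, minus strand: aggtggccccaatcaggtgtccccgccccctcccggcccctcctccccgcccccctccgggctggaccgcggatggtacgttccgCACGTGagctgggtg
The members with the AGGTCA letters did not share a profile: Plet1 was highest in R213G replicate 1, Fabp1 was at 0 there, and Pparg was nearly equal in both R213G libraries.

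The lipid genes Fabp4, Fabp1 and Cidec are targets of PPAR receptors in other tissues, and each ordered the 4 libraries differently from Pparg. Fabp4, the fatty acid binding protein of adipocytes and macrophages, lies on chromosome 3 from 10204088 to 10208576 (minus strand). It was measured at 26.3 and 48.3 CPM in R213G, against 46.5 and 38.3 CPM in WT. R213G replicate 1 was the low library and the genotypes overlapped. Its log2 fold change was -0.18 ± 0.26, and it turned to 0.19 without R213G replicate 1. The related Fabp5 averaged 519 ± 111 CPM in R213G and 545 ± 93.8 CPM in WT (SD, n = 2 each), a log2 fold change of -0.07 ± 0.17.

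Fabp1, the liver fatty acid binding protein, lies on chromosome 6 from 71199827 to 71205023 (plus strand). It had 0 and 28 counts in R213G, against 0 and 16 counts in WT. Each genotype therefore held 1 library without a read, where 0 counts allow up to 0.0896 CPM in R213G replicate 1 and 0.0894 CPM in WT replicate 1 (a limit of 3 counts, for counting error only). The log2 fold change of 0.76 ± 1.78 turned to -6.03 without R213G replicate 2 and -0.20 without WT replicate 1, and such fitted values against a library at 0 are no bound.

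Cidec, a lipid droplet protein that fuses droplets and restrains lipolysis, lies on chromosome 6 from 113424634 to 113435760 (minus strand), 1.93 Mb from Pparg. It had 0 and 36 counts in R213G, against 54 and 28 counts in WT, and the genotypes overlapped. Cidec had a log2 fold change of -1.22 ± 1.15. It was -0.23 without R213G replicate 1, so that library set most of it, and -8.37 without R213G replicate 2, where the R213G side is at 0.

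Krt79, a type II keratin found in resident alveolar macrophages as well as in skin, lies on chromosome 15 from 101929332 to 101940324 (minus strand). It had 1 and 17 counts in R213G, against 18 and 8 counts in WT. R213G replicate 1 was again lowest, and the log2 fold change of -0.56 ± 1.44 turned to 0.34 without it and to 0.16 without WT replicate 1. A low or missing count in that library was common: of 1614 genes with 44 to 118 counts summed over the libraries, the span of these 3 genes, 33.7% were at 0 in R213G replicate 1 and 9.91% in R213G replicate 2, against 15.5% and 9.05% in WT replicates 1 and 2. In all, 53.5% of such genes were at 0 in at least 1 library.

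**Figure D2:**
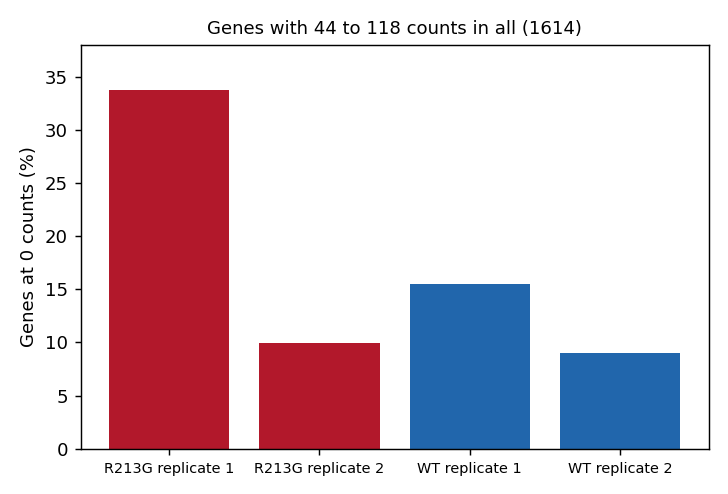
Share of the 1614 genes with 44 to 118 counts summed over the 4 libraries that had 0 counts in each library, with R213G in red and WT in blue. The share was 33.7% in R213G replicate 1 and between 9.05% and 15.5% in the other libraries.

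The secreted proteins Chil3 and Ear2 were the most abundant members per kilobase, and both have close copies in the genome. Chil3, the chitinase-like protein Ym1, lies on chromosome 3 from 106147554 to 106167564 (minus strand). It was measured at 198 and 177 CPM in R213G, against 134 and 504 CPM in WT. WT replicate 2 alone was high, 3.76 times WT replicate 1, and the R213G libraries lay between them. A log2 fold change of -0.77 ± 0.70 (unadjusted p = 0.337) turned to 0.49 without WT replicate 2 and was -1.43 without WT replicate 1.

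Ear2, an eosinophil-associated ribonuclease that alveolar macrophages also make, lies on chromosome 14 from 44102654 to 44103534 (plus strand). It was measured at 178 and 100.2 CPM in R213G, against 92.8 and 139 CPM in WT. Each genotype held a high and a low library, and the values interleaved. Ear2 had a log2 fold change of 0.26 ± 0.28, which turned to -0.21 without R213G replicate 1 and to -0.0011 without WT replicate 1.

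Reads of these genes can be shared with their copies. Of all 50-base windows of the Ear2 transcript, 41.5% also occur in transcripts of other genes (Ear10, Ear1 and Ear-ps2 in GENCODE vM21), and 13.9% of its 100-base windows do. For Chil3 the shares were 29.4% and 5.42% (Chil4 and Gm6522). Plet1 shared 0.488% of its 50-base windows, and the other 7 genes shared 0. The coding sequences of Ear2 and Ear1 were 95.1% identical and those of Chil3 and Chil4 94.4%. The 60 aligned coding bases with the most differences in each pair are printed to show how little tells the copies apart, 5′ to 3′ on the coding strand, with the bases that differ in capitals (5 in the Ear pair and 10 in the Chil pair).
Ear2, chromosome 14, coding bases 96 to 155: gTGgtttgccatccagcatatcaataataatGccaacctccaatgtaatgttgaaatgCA
Ear1, chromosome 14, coding bases 96 to 155: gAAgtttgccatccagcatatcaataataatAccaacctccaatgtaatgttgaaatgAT
Chil3, chromosome 3, coding bases 500 to 559: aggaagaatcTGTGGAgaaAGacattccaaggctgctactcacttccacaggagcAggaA
Chil4, chromosome 3, coding bases 500 to 559: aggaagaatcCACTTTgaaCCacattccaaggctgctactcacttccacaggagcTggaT
In the deposited counts Ear1 and Chil4 were low. Ear1 had 33 and 60 counts in R213G, against 50 and 40 counts in WT. Chil4 had 5 and 6 counts in R213G, against 1 and 14 counts in WT. Ear10 is not analysed here. How reads that match several genes were counted is not given in the sources used here, so the levels of Ear2 and Chil3 are uncertain to that extent.

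The surface proteins Car4 and Plet1 varied in opposite ways between replicates 1 and 2 of each genotype. Car4, a membrane-anchored carbonic anhydrase, lies on chromosome 11 from 84957786 to 84966044 (plus strand). It was measured at 9.11 and 19.2 CPM in R213G, against 5.63 and 12.8 CPM in WT. Replicate 2 was 2.11 times replicate 1 in R213G and 2.27 times in WT, so the spread within each genotype exceeded the log2 fold change of 0.61 ± 0.46 (unadjusted p = 0.209). Without R213G replicate 2 the log2 fold change was -0.03.

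Plet1, a glycosylphosphatidylinositol-anchored surface protein, lies on chromosome 9 from 50494525 to 50505482 (plus strand). It was measured at 105 and 73.2 CPM in R213G, against 77.5 and 54.4 CPM in WT. Here replicate 1 of each genotype was the higher one, by 1.44 times in R213G and 1.42 times in WT. With 0.44 ± 0.21 on the log2 scale, Plet1 had the smallest unadjusted p of the 10 genes (0.0686, edgeR quasi-likelihood). Leaving out R213G replicate 1 gave 0.15, and leaving out WT replicate 1 gave 0.71.

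**Figure D3:**
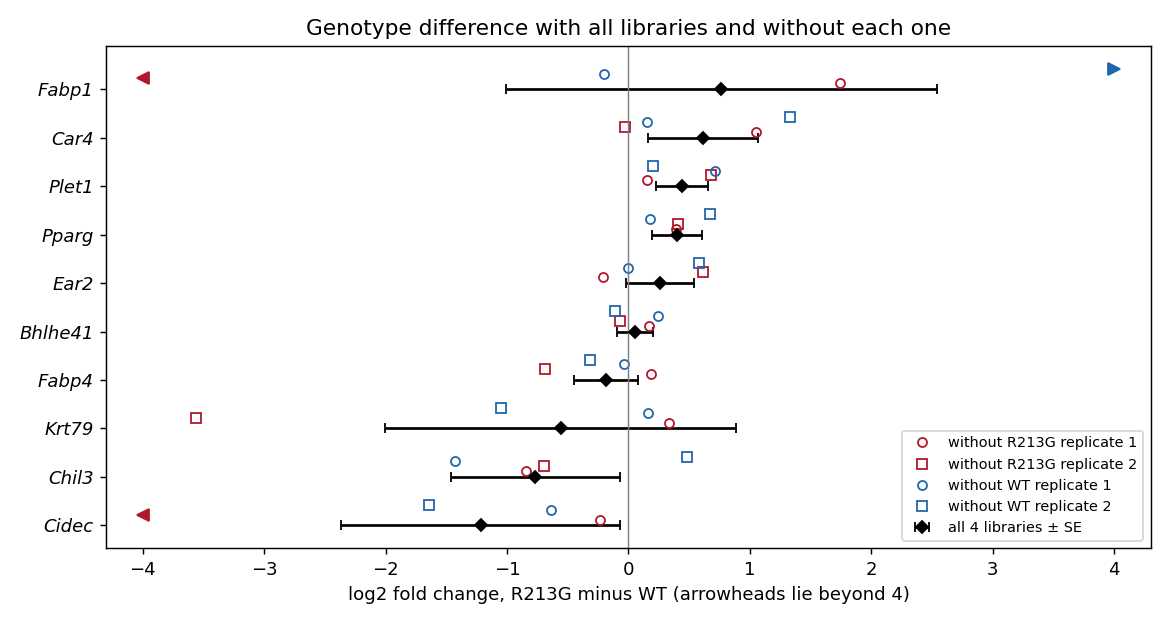
Log2 fold change of each gene, R213G minus WT, with all 4 libraries (black diamonds, bars are ± SE) and without each library in turn (red for a left-out R213G library, blue for WT, circles for replicate 1 and squares for replicate 2; arrowheads lie beyond the axis). Pparg, Plet1 and Cidec keep their sign in each case, and the other 7 genes change sign without at least 1 library.

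For every member, the gap between the libraries of at least 1 genotype was larger than the difference between the genotypes. On the log2 CPM scale, the difference between genotype means exceeded both within-genotype gaps for 0 of 10 genes, and this was so for 16.7% of all genes tested. Pparg came closest, with a difference of 0.42 and gaps of 0.02 in R213G and 0.50 in WT. Plet1 had a difference of 0.44 and gaps of 0.53 in R213G and 0.51 in WT. A gap of over 2-fold between the libraries of a genotype was seen for 4 genes in R213G (Car4, Krt79, Cidec and Fabp1) and for 4 genes in WT (Chil3, Car4, Krt79 and Fabp1).

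**Figure D4:**
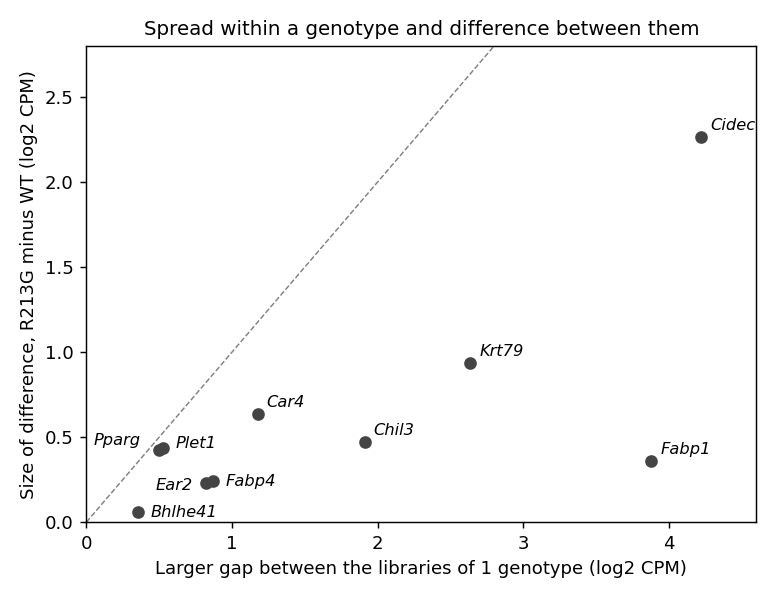
For each gene, the size of the difference between genotype means (y axis) against the larger of the gaps between the libraries of 1 genotype (x axis), both in log2 CPM, with a dashed line where they are equal. All 10 genes lie below the line, Pparg and Plet1 closest to it, at differences of 0.42 and 0.44.

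The mean log2 CPM over the 10 genes was 3.12 and 4.26 in R213G replicates 1 and 2, against 3.66 and 4.08 in WT replicates 1 and 2. R213G held both the lowest and the highest library. The low value of R213G replicate 1 rests on the genes at 0 or 1 count there, since the summed level of the 10 genes in that library was 781 CPM, against 723 CPM in R213G replicate 2 and 647 and 991 CPM in WT.

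Markers of other cells that could carry these genes were read in each library. Dendritic cell markers, of which 11 of 11 were in the table, summed to 510 and 281 CPM in R213G replicates 1 and 2, against 428 and 279 CPM in WT replicates 1 and 2. Flt3, the receptor that dendritic cells need to develop, had 691 and 219 counts in R213G, against 1010 and 244 counts in WT. Cd24a, the highest of the list, had 7632 and 5896 counts in R213G, against 5009 and 6288 counts in WT. Within each genotype the list was higher in the library where Car4 was lower and Plet1 higher, and its part in those values was not tested. Lymphocyte markers (7 of 11 found, led by Ighm) summed to 30.4 and 24.5 CPM in R213G, against 32.9 and 17.3 CPM in WT.

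Eosinophils, endothelium, epithelium and fat can express some members too, although a sort for CD64 high, CD11b high and Siglec-F low cells selects against all of them. Of 9 eosinophil markers 4 were in the table and summed to 14.3 and 13.9 CPM in R213G, against 12.9 and 12.2 CPM in WT, most of it Siglecf. Alox15 was at 0 in every library. Endothelial markers, a source of Car4 and Fabp4 in lung capillaries, summed to 102 and 144 CPM in R213G, against 139 and 120 CPM in WT over 7 of 11 genes found. Vwf made up most of these sums, at 90.5 and 136 CPM in R213G, against 129 and 110 CPM in WT. The junction gene Cdh5 had 37 and 18 counts in R213G, against 7 and 37 counts in WT. The adhesion gene Pecam1 had 24 and 50 counts in R213G, against 74 and 105 counts in WT (log2 fold change -1.30 ± 0.71, edgeR quasi-likelihood, unadjusted p = 0.0983). Of the 5 endothelial genes tested, 2 were positive and 3 negative, with a median of -0.05. Alveolar epithelial markers (9 of 11 found) summed to 112 and 63.9 CPM in R213G, against 67.2 and 68.6 CPM in WT. Hopx led, at 2633 and 1522 counts in R213G, against 1619 and 1789 counts in WT. Epcam had 1101 and 515 counts in R213G, against 491 and 329 counts in WT, and the genotypes overlapped in CPM. Its log2 fold change was 0.95 ± 0.39 (edgeR quasi-likelihood, unadjusted p = 0.0370, adjusted 0.9996). Of the 5 alveolar epithelial genes tested, 3 were positive and 2 negative, with a median of 0.26. The surfactant genes differed in order: Sftpc had 0 and 8 counts in R213G, against 0 and 6 counts in WT, Sftpb 14 and 76 in R213G, against 22 and 33 in WT, and Sftpd 42 and 0 in R213G, against 0 and 7 in WT. Airway epithelial markers (8 of 10 found) summed to 103 and 121 CPM in R213G, against 94.7 and 121 CPM in WT. Nearly all of it was Tppp3, at 101 and 110 CPM in R213G, against 89.8 and 116 CPM in WT. Adipocyte and fibroblast markers (3 of 11 found, led by Acta2) summed to at most 6.50 CPM in a library. Neutrophil markers (5 of 11 found) summed to 91.4 and 104 CPM in R213G, against 113 and 112 CPM in WT. Most of it was Mmp8, at 70.7 and 90.0 CPM in R213G, against 101 and 97.7 CPM in WT. A sum carried by 1 gene says little of the other markers on its list, and the part of these cells in the members' values was not tested.

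Other genes listed for the resident program gave the same count of calls, 0. Of 28 further genes listed for resident alveolar macrophages, 27 were tested. Their log2 fold change was positive for 19 and negative for 8, with a median of 0.13. Over all 13575 genes tested, 6659 were positive and 6916 negative. The mean log2 CPM of the 27 was 5.82 and 6.50 in R213G, against 6.03 and 6.15 in WT. R213G thus held both the lowest and the highest library. Both R213G libraries were above both WT libraries for 3 of the 27 and below for 0, where the background was 13.7% and 15.2%. Spp1, the matrix protein osteopontin, was the highest on the list, with 193789 and 295288 counts in R213G, against 241827 and 251049 counts in WT (log2 fold change -0.05 ± 0.17). These counts come from recruited macrophages, and no sorted resident macrophages were measured. Whether Spp1 marks resident cells was therefore not tested, and its level was not read as resident identity. The scavenger receptor Marco had 271 and 822 counts in R213G, against 244 and 320 counts in WT, so R213G replicate 2 alone was high (log2 fold change 0.92 ± 0.48). Ltc4s, the leukotriene C4 synthase, had 1351 and 937 counts in R213G, against 730 and 923 counts in WT (log2 fold change 0.44 ± 0.24).

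Receptors and factors that act on Pparg were described from a list. Among 22 genes that set alveolar macrophage identity, 8 had a positive and 14 a negative log2 fold change, with a median of -0.01 and values from -0.27 to 0.23. Csf2ra, the alpha chain of the GM-CSF receptor, averaged 861 ± 24.4 CPM in R213G and 866 ± 114 CPM in WT. Csf2rb2, a beta chain of the IL-3 receptor closely related to that of the GM-CSF receptor, had 9526 and 9761 counts in R213G, against 10802 and 10553 counts in WT (log2 fold change -0.18 ± 0.11). Csf2rb, the beta chain of the GM-CSF receptor itself, had 21917 and 22465 counts in R213G, against 23092 and 24058 counts in WT. Maf, which restrains self-renewal of macrophages, had a log2 fold change of -0.27 ± 0.15. For these 3 of the 22 genes, Csf2rb2, Csf2rb and Maf, both R213G libraries were below both WT libraries in CPM. This was so for 15.2% of all genes tested. Both R213G libraries were above for 1 gene, Tgfb1, and for 13.7% of all genes tested. None of the 3 passed the test (edgeR quasi-likelihood, unadjusted p = 0.135 for Csf2rb2, 0.281 for Csf2rb and 0.0991 for Maf).

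PPAR-responsive lipid genes beyond the members, some of them also on the resident list, split evenly, with 10 of 20 tested positive and a median of -0.03. Ucp2, a mitochondrial carrier, was highest, with 99605 and 88606 counts in R213G, against 89949 and 92411 counts in WT. Lpl, which hydrolyses lipoprotein triglyceride, had a log2 fold change of 0.20 ± 0.14, and Angptl4, which inhibits it, -0.23 ± 0.16.

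Genes on the other side of the transition were described in the same way. Of 19 monocyte genes tested, which include Chil3, 8 were positive and 11 negative with a median of -0.08, and 0 passed. An unadjusted p under 0.05 (edgeR quasi-likelihood) was found for 2, Itga4 and F13a1, and for 2.22% of all genes tested. The list was chosen with earlier results of these data known, so this count is a description. Fn1, encoding fibronectin, had 364005 and 336019 counts in R213G, against 371364 and 460982 counts in WT. The integrin gene Itga4 had 8727 and 10861 counts in R213G, against 11610 and 11851 counts in WT (log2 fold change -0.30 ± 0.13; edgeR p before adjustment 0.0438). F13a1, a factor XIII subunit, had 4445 and 5243 counts in R213G, against 9057 and 6001 counts in WT (log2 fold change -0.68 ± 0.19; edgeR p before adjustment 0.0065). For 5 of the 19 both R213G libraries were below both WT libraries and for 1 above, where the background was 15.2% and 13.7%. Of 18 interstitial macrophage markers tested, 8 were positive and 10 negative with a median of -0.03. Apoe, the lipid carrier apolipoprotein E, was highest and had a log2 fold change of -0.25 ± 0.19, and Cd72, a B cell and macrophage receptor, had a log2 fold change of 0.46 ± 0.24.

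Genes most like Pparg were found by the root mean square distance between log2 CPM profiles, each centred on its own mean, over the 4 libraries, among 9683 other genes with a mean of at least 5 CPM. The nearest were Tsen34, Slirp, Atp10a, Tmem97 and Rbmx, at distances of 0.0299 to 0.0394. Each was lowest in WT replicate 1, as Pparg was, which follows from how they were chosen. Tsen34 stood at 21.7 and 20.7 CPM in R213G, against 13.9 and 19.0 CPM in WT, and Atp10a at 74.7 and 77.9 CPM in R213G, against 49.6 and 67.3 CPM in WT. The 6 other members above that level were farther away, from 0.302 for Ear2 to 0.673 for Chil3.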

How the data were processed

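Per the labels, directional poly(A) libraries were made from RNA of the sorted cells. The authors deposited raw read counts for each gene symbol and library, not normalized. STAR 2.5.1b and featureCounts of Subread 1.4.4 were run on GRCm38 per the submitters' processing notes; the annotation, strand setting and handling of multiply matching reads are not stated there. The test was edgeR 4.0.16 quasi-likelihood (newer form, robust, TMM, filterByExpr; 13575 genes, 2 residual degrees of freedom), Benjamini-Hochberg at 0.05, in R 4.3.3. The SE is the log2 fold change divided by the root of its F statistic. The members, lists and named-gene rule (members, the leading genes of each list, close paralogs, genes nearest to Pparg) were chosen with earlier results of these data known. Flt3, Csf2rb, Cdh5, Pecam1, Epcam, Sftpb, Sftpc, Sftpd and Alox15 were named after their values were seen. Positions, exon lengths and transcripts came from GENCODE vM21 (GRCm38), with a length for 96.9% of symbols. Log2 CPM used a prior count of 2. Each pair of libraries differed by more than sampling noise. The code was tested on simulated data. With 2 libraries a side, exact permutation cannot give a two-sided p under 0.333. Alternatives were RLE and upper-quartile scaling, other filters on low counts (none, or 5 CPM on average), DESeq2 1.42.0, legacy edgeR, voom in limma 3.58.1, blocking on replicate number, other thresholds, and omission of each library.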

Additional observations from a re-analysis of the deposited data

How the results depend on the processing

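The count of genes called across the table was 0 under each scaling, filter and edgeR setting, 0 by limma voom, 1 by DESeq2 and 0 to 2 when a library was left out; at an unadjusted p under 0.05 it was 302, and at an adjusted p under 0.1 it was 0. None of the 10 members was called under any setting. The median log2 fold change of the members was 0.14 to 0.27 under the 8 settings with all libraries (0.27 with the filter at 5 CPM, which left 7 members) and -0.38 to 0.35 when a library was left out, below 0 only without R213G replicate 2. No member changed sign under those 8 settings; Krt79, Cidec and Fabp1 were not tested with the filter at 5 CPM. Without single libraries the log2 fold change ran from -1.43 to 0.49 for Chil3, -0.027 to 1.33 for Car4, -3.57 to 0.34 for Krt79, -0.21 to 0.61 for Ear2, -6.03 to 6.80 for Fabp1, -0.69 to 0.19 for Fabp4 and -0.11 to 0.24 for Bhlhe41; the cause was not tested. Cidec was at -3.21 by limma voom. With the replicate number as a block 0 genes were called and the member median was 0.15. Plet1 then had an unadjusted p of 0.0115 (edgeR quasi-likelihood, adjusted 0.9994), so 1 of 10 members was under 0.05 and not 0 of 10. Same-numbered libraries correlated at 0.0926 in their deviations, with only 2 pairs. With 2 libraries per genotype this value is the same for both numbers by construction. It therefore cannot decide whether the numbers pair the libraries. Depth limits Fabp1, Cidec and Krt79, which had at most 118 counts in all.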
